A study of Mus musculus with 2 samples.

Results

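The cells described here are the border macrophages of a sorted mouse brain sample. They were chosen by their counts: a kept cell was taken when it held a unique molecular identifier (UMI, 1 counted RNA molecule) of at least 3 of the 8 border genes Mrc1, Pf4, Cd163, Lyve1, F13a1, Ms4a7, Cbr2 and Folr2, and of at most 2 of the 5 microglia genes P2ry12, Tmem119, Siglech, Gpr34 and Sall1. Kept cells had at least 500 genes and at most 10% of their UMIs from mitochondrial genes. The rule found 130 cells of 10076 kept cells in the sorted sample, a share of 1.29% [1.08–1.53], out of 19443 kept cells in the series. The sorted sample pooled brain cells from male mice of 3 and 12 months, wild type (WT) and STING-KO, after fluorescence-activated cell sorting. STING is an adaptor protein that passes on the signal of DNA found in the cytosol, and its gene is Tmem173. A second sample pooled unsorted total brain cells from male and female mice of 2 and 24 months (its age label reads 240), again WT and STING-KO, with 2 mice grouped per genotype and age. Each sample is 1 table with 4 barcode suffixes. The sources used here do not say which age and genotype each suffix holds, how cells were gated or how the STING-KO allele was made. There is thus 1 pooled sample per group and no replicate, cells of 1 sample are not replicates, and no test is given. Ranges in brackets are exact intervals at 95% (Clopper-Pearson for shares, binomial for folds) and include counting error only.

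Border macrophages live in the meninges, around the larger vessels and in the choroid plexus, outside the tissue in which microglia sit. They take up proteins, lipids and debris from the fluid spaces through scavenger and lectin receptors. Some also present peptides on MHC class II molecules. In many tissues, resident macrophages fall into cells with the hyaluronan receptor Lyve1 or the folate receptor Folr2 and little class II, and cells with high class II and little of both receptors. Both divisions are described below for the 130 cells.

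Since the border genes chose the cells, the values in this paragraph are a description. Of the 8 genes, 3 were detected in 43 cells, 4 in 29, 5 in 23, 6 in 18, 7 in 11 and all 8 in 6 cells. Pf4, which encodes platelet factor 4, had a UMI in 98.5% of the cells and Ms4a7, a membrane protein of macrophages, in 80.8%. F13a1, coagulation factor XIII A, was detected in 68.5% and the mannose receptor Mrc1 in 66.9%. Detection was lower for Cbr2 (51.5%), Folr2 (39.2%), Lyve1 (27.7%) and the haemoglobin scavenger receptor Cd163 (23.1%). In the microglia of the sample, 4498 kept cells with at least 3 microglia genes and at most 2 border genes, the same shares lay between 0.0445% for Lyve1 and 1.13% for Pf4. Depth was alike, with a median of 2096.5 UMIs per border macrophage and 2100 per microglial cell. F13a1 is shared with monocytes, in which it was detected in 53.5% of 127 cells, while Pf4 and Mrc1 were each detected in 0.787% of them. Monocytes were limited to at most 2 border genes, so these low shares are partly set by that definition. Of the microglia genes, 34 border macrophages held none, 55 held 1 and 41 held 2. P2ry12 had a UMI in 30% of border macrophages, against 99.1% of microglia, 9.42% of B cells and 8.91% of T and NK cells.

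The cut of the rule did not fall in a gap. Just outside it, 54 cells held 2 border genes, with 680 CPM (UMIs per 1000000 UMIs of the class) of Pf4 and 81.2 CPM of Mrc1. Just inside, the 43 cells with exactly 3 held 2195 and 336 CPM. A further 20 cells had enough border genes but held 3 microglia genes, with 1028 CPM of P2ry12, against 337 CPM in the 41 cells with 2. The plot of detection by cell class shows how far the chosen genes separate the cells.

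**Figure D1:**
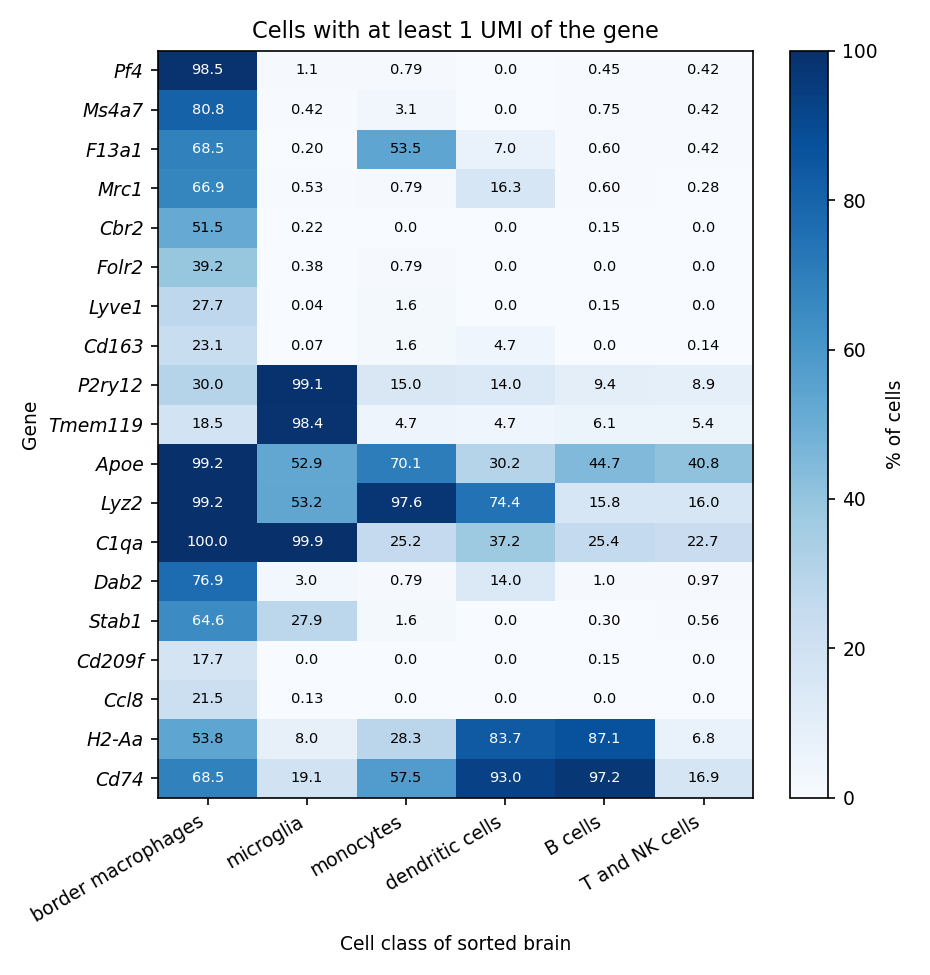
Heat map of the share of cells with at least 1 UMI (percent, printed in each square and shaded from 0 to 100%) for border, microglia, class II and other genes (rows) in border macrophages and 5 other cell classes of the sorted sample (columns). Pf4 is in 98.5% of border macrophages and 1.13% of microglia, while Apoe is in 99.2% and 52.9%.

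The sorted sample held 13499 barcodes with 36822467 UMIs, and the border macrophages 355648 UMIs with a median of 915.5 genes. RNA of other cell types was present in droplets of every class: Ttr, a transcript of choroid plexus epithelium, was detected in 100% of border macrophages and of microglia. The lists of markers of other lineages were read in each border macrophage. Of the 130 cells, 11 held at least 1% of their UMIs from such a list, or 5% for choroid plexus, and these 11 droplets held 21.9% of all border macrophage UMIs. Red cell markers made up 6.81% to 68.1% of 4 droplets, B cell markers 18.3% of 1, choroid plexus markers 27.9% and 39.7% of 2, and oligodendrocyte markers 3.08% and 5.14% of 2. The last 2 droplets held 1.42% of stromal and 2.02% of monocyte markers. Neutrophil markers summed to 183 CPM and T and NK cell markers to 25.3 CPM, and the 7 mast cell and basophil markers had 0 UMIs. Mixed droplets held 2 or more markers of the B cell, T and NK cell, neutrophil, mast cell and basophil, stromal or oligodendrocyte list. Of the 130 cells, 24 were mixed and 1 was called a doublet. Other lists were not counted there: 51 cells held 2 or more red cell markers and 42 held 2 or more choroid plexus markers. All values below are over the 130 cells, and values over the 119 cells without the 11 droplets are given beside several of the results that they change. The choice of the 11 droplets was made after seeing the data. The barcode sequence of 2 border macrophages also occurred in another suffix, and the 2 samples shared 5 barcode sequences.

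Border macrophages were found under all 4 barcode suffixes. There were 28, 24, 31 and 47 of them under suffixes 1 to 4, out of 3160, 2376, 2034 and 2506 kept cells. Their share was 0.886% [0.590–1.28], 1.01% [0.648–1.499], 1.52% [1.04–2.16] and 1.88% [1.38–2.49]. The intervals of suffixes 1 and 4 did not overlap. Set against microglia, there were 1.67, 1.66, 4.81 and 6.41 border macrophages per 100 microglial cells, so suffixes 3 and 4 held more on both scales. Their median depth was 3588, 2126.5, 2004 and 1896 UMIs. Depth was thus highest under suffix 1, and its part in the shares was not tested.

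**Figure D2:**
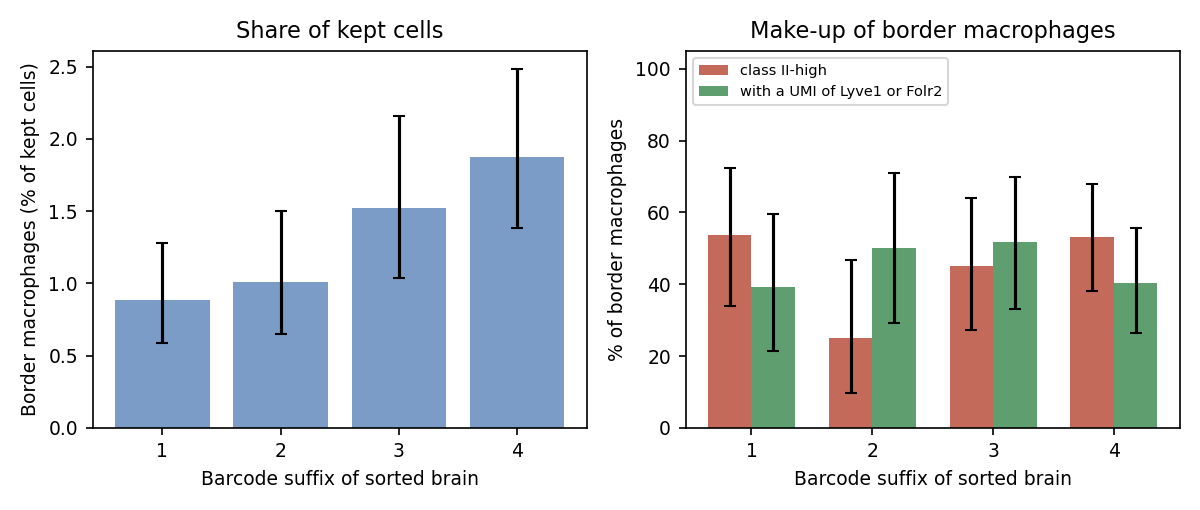
Border macrophages under barcode suffixes 1 to 4 of the sorted sample, as a percent of kept cells, at left, and the percent of them that were class II-high or held a UMI of Lyve1 or Folr2, at right (bars with 95% Clopper-Pearson intervals). The share of kept cells lies between 0.886% and 1.88%, and the class II-high share between 25% and 53.6%.

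Against microglia, border macrophages held far more of the lipoprotein Apoe, the lysozyme Lyz2, scavenger and lectin receptors, class II genes, CCL chemokines and interferon-response genes, and less of the matrix protein Sparc, cystatin C and several cathepsins. A gene was called when the ratio of CPM + 10 was at least 2, with at least 20 CPM in 1 or both classes and the same direction in every suffix that held at least 20 cells of both classes. Of 5816 genes tested, 16.3% were called: 254 (4.37%) higher in border macrophages and 696 (12%) higher in microglia. Without the 11 droplets, 16.8% of 5937 genes were called, 286 (4.82%) higher and 709 (11.9%) lower. The median log2 ratio over all tested genes was -0.27. Folds are ratios of CPM without the added 10. The border and microglia genes of the rule are not counted in this comparison, and the other genes come from the same cells, so the comparison describes them and tests nothing.

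Of the 12 other genes known for border macrophages, 10 were called higher and none lower, with a median log2 ratio of 2.99. This list, like the others, was chosen with earlier results of these data known. Apoe was at 58766 CPM in border macrophages and 1419 CPM in microglia, 41.4-fold [40.6–42.3] higher. It was the most abundant transcript of the border macrophages. Dab2, an endocytic adaptor, stood at 801 against 15.4 CPM (52.2-fold [42.8–63.7]) and had a UMI in 76.9% of border macrophages and 3.02% of microglia. Lower folds were seen for the membrane protein Ms4a6c (593 against 54.1 CPM) and the matrix protein Tgfbi (498 against 40.6 CPM). Maf, a transcription factor of resident macrophages, was at 506 against 310 CPM and was not called.

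Scavenger and lectin receptors were called higher for 11 of 15 tested members and lower for 2, with a median log2 ratio of 3.32. Stab1 and Dab2 count among the higher genes both here and in the list of other border macrophage genes. The C-type lectin Cd209f had 177 UMIs (498 CPM) in border macrophages and 0 in microglia, at least 1717-fold higher when the microglia are set to 3 UMIs. These 177 UMIs came from 23 of the 130 cells, so the transcript was concentrated in few cells. Its neighbour Cd209g was at 183 against 0.387 CPM. Clec4n (dectin-2, a receptor for mannans) had 59 UMIs, or 166 CPM, and Timd4 (Tim-4, which binds phosphatidylserine on dead cells) 32 UMIs, or 90.0 CPM, against 3 and 0 UMIs in microglia. The scavenger receptors Stab1 (661 against 153 CPM, 4.31-fold), Msr1 (149 against 2.42 CPM) and Cd36 (110 against 1.35 CPM) were also higher. Receptors for dying cells were divided: Axl was at 129 against 7.73 CPM, while Mertk was 5.44-fold lower, at 42.2 against 230 CPM. Lrp1, a receptor for Apoe, was lower as well, at 42.2 against 136 CPM.

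Among chemokines and cytokines, 7 of 17 tested genes were called higher and none lower. The largest folds were those of the monocyte attractants Ccl8 (332 against 1.06 CPM, 312-fold [168–642]) and Ccl7 (917 against 13.1 CPM, 69.8-fold [56.9–85.8]). Ccl8 was detected in 28 and Ccl7 in 32 of the 130 cells. Ccl2 was at 1381 against 216 CPM, Ccl12 at 1667 against 265 CPM, the eosinophil attractant Ccl24 at 158 against 10.2 CPM and the neutrophil attractant Cxcl2 at 335 against 14.3 CPM. Ccl12 was not called when at least 4 border genes were required or when called doublets were left out, although its ratio stayed above 2. Ccl3 and Ccl4, which attract monocytes and T cells, were not called (1102 against 1531 and 1192 against 2268 CPM). The list of secreted growth and trophic factors also holds prostaglandin enzymes. Of it, Igf1 (149 against 1.74 CPM), Gas6 (605 against 157 CPM), Egfl7 (67.5 against 2.71 CPM) and Wfdc17 (874 against 13.6 CPM) were higher. Of the 9 genes tested, 3 were lower, Pdgfb and the prostaglandin enzymes Hpgds and Ptgs1.

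Interferon-response genes were called higher for 14 of 16 tested members and lower for none, with a median log2 ratio of 2.05. Ifitm3, which blocks viral entry, stood at 1369 CPM against 79.5 CPM, 17.2-fold higher. Bst2, which tethers virus particles at the cell surface, was at 967 against 193 CPM and the ubiquitin-like Isg15 at 118 against 25.9 CPM. Under suffixes 1 to 4, Ifitm3 was at 1127, 779, 1017 and 2238 CPM in border macrophages and at 86.9, 47.1, 117 and 120 CPM in microglia. The groups did not overlap across suffixes, but a call already required the same direction in each suffix. How many of all tested genes did not overlap is not given. The level in border macrophages was highest under suffix 4. Isg15 was at 102, 163, 67.8 and 154 CPM in border macrophages, above all 4 values in microglia (23.0, 15.8, 44.4 and 50.2 CPM). The 4 values of Bst2 were 1007, 706, 689 and 1302 CPM, against 207, 149, 214 and 267 CPM.

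Lysosomal genes went mostly the other way, with 6 of 11 lower and 2 higher (Lyz2 and the protease Ctsc). Lyz2 was at 15538 CPM against 639 CPM, 24.3-fold higher. Cst3, the protease inhibitor cystatin C, was at 10314 against 66049 CPM, 6.40-fold lower, and the protease Ctsd at 1957 against 10777 CPM, 5.51-fold lower. Sparc, a secreted matrix protein, was 37.1-fold lower (90.0 against 3340 CPM). The complement genes C1qa, C1qb and C1qc were high in both classes and were not called, with C1qa at 7676 and 11194 CPM. Properdin (Cfp, 124 against 4.64 CPM) and C4b (84.4 against 2.03 CPM) were higher in border macrophages. The growth factor receptor Csf1r, on which both cell types depend, was 2.40-fold lower (1412 against 3391 CPM), and the fractalkine receptor Cx3cr1 was at 568 against 2184 CPM. Trem2, a lipid receptor, was 4.46-fold lower, at 591 against 2634 CPM. The transcription factor Irf8 was lower over all 130 cells (267 against 583 CPM) and was not called without the 11 droplets.

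Of 9 tested genes of cytosolic DNA sensing, Zbp1 (73.1 against 4.54 CPM) and Ifi204 (135 against 14.7 CPM) were called higher and Tmem173 lower. Tmem173 is the gene named in the genotype label. It had 17 UMIs in 14 of the 130 border macrophages (10.8% [6.01–17.4]), at 47.8 CPM against 149 CPM in microglia. By suffix, border macrophages held 8, 0, 1 and 8 UMIs of it, or 73.9, 0, 11.3 and 77.2 CPM. Microglia held 302, 3.20, 22.2 and 223 CPM, so in both classes the levels were lower under suffixes 2 and 3. The call against microglia was lost without suffix 1, with a log2 ratio of -0.29. Ifi204 was higher in border macrophages under each suffix, at 157, 109, 147 and 116 CPM against 12.5, 7.90, 28.5 and 30.5 CPM. Mb21d1, which encodes the DNA sensor cGAS, had 7 UMIs in 7 border macrophages.

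Against monocytes, the 127 kept cells with at least 3 of 6 monocyte markers, border macrophages held more complement, scavenger receptor, iron and trophic genes and fewer genes of the cell cycle. Of 5520 genes tested, 23.4% were called, 641 (11.6%) higher and 649 (11.8%) lower in border macrophages. Monocytes were sequenced more deeply, with a median of 4114 UMIs per cell. Monocytes and the dendritic cells below were limited to at most 2 border and at most 2 microglia genes. They held at most 1 B cell and at most 1 T and NK cell marker. Scavenger and lectin receptors were higher for 12 of 15 tested members, complement genes for 7 of 10 and iron and haem genes for 6 of 8. Lysosomal genes were higher for 8 of 11. The list of trophic factors and prostaglandin enzymes was higher for 6 of 8, the enzymes Hpgds and Ptgs1 among them. C1qa was at 7676 against 90.6 CPM, 84.8-fold higher, and Maf at 506 against 10.1 CPM. Selenop, a selenium carrier, was at 2941 against 237 CPM, and Csf1r at 1412 against 270 CPM. Lyz2 was lower than in monocytes, at 15538 against 34882 CPM, as was Ifitm3, at 1369 against 4313 CPM. In that comparison, 4 of 16 interferon-response genes were higher (Ifit1, Ifit2, Bst2 and Rtp4) and 2 were lower (Ifitm2 and Ifitm3), and 6 of 7 proliferation genes were lower. With droplets rich in another type's RNA removed from both classes (119 border macrophages and 98 monocytes), 3 interferon-response genes were higher (Ifit2, Ifit3 and Bst2) and 4 were lower (Irf7, Ifitm2, Ifitm3 and Ifi27l2a), and the median log2 ratio of the list went from 0.61 to -0.034. Direction was checked in 3 suffixes over all cells and in 2 after this removal. Neutrophil markers summed to 85792 CPM in the monocytes, and to 184 CPM in the 98 monocytes left without such droplets.

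Against dendritic cells, 43 kept cells with at least 2 of 9 dendritic markers, 29.6% of 5509 tested genes were called, 796 (14.4%) higher and 832 (15.1%) lower in border macrophages. The dendritic class overlapped the monocyte class, since 12 of the 127 monocytes also held at least 2 dendritic markers. Of the 43 dendritic cells, 30 held 2 or more monocyte markers. No suffix held 20 cells of both classes, so direction was not checked within suffixes. All 6 tested Fc receptor genes were higher, with Fcgr1 at 329 against 56.8 CPM and Fcgr3 at 1035 against 156 CPM. Scavenger receptors were higher for 12 of 15, complement genes for 7 of 10 and lysosomal genes for 7 of 11. Among the transcription factors tested, Maf was higher, and Irf8 (267 against 1154 CPM), Id2 and Batf3 were lower. The 3 class II genes H2-Aa, H2-Ab1 and H2-Eb1 were not called, with H2-Aa at 6439 against 11569 CPM.

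The comparisons with microglia, monocytes and dendritic cells share the border macrophages, and the last 2 classes also share 12 cells. Of all genes tested, 4.37% were called higher than in microglia, 11.6% than in monocytes and 14.4% than in dendritic cells. Direction was not checked within suffixes against dendritic cells. In all 3 comparisons, 97 genes were called higher, and the number of genes tested in all 3 is not given. The 15 leading genes, ranked by the smallest of the 3 ratios, were Cd209f, Ccl7, Ccl8, Apoe, Cd209g, Dab2, Igf1, Cp, Tslp, Adam33, Pla2g2d, Ccl24, Cyr61, Clec4n and Timd4. Apoe and Dab2 were widespread, with a UMI in 99.2% and 76.9% of border macrophages. The others were found in fewer cells. Igf1 had 53 UMIs in 35 cells, ceruloplasmin (Cp, a copper-binding ferroxidase) 50 UMIs in 33 cells and the cytokine Tslp 41 UMIs in 30 cells. The metalloprotease Adam33 had 35 UMIs in 25 cells and the secreted phospholipase Pla2g2d 30 in 22. None of Igf1, Cp, Tslp, Adam33 and Pla2g2d had a UMI in monocytes or dendritic cells. Cyr61, a matrix-associated protein, had 38 UMIs in 13 cells. It was lower than in each of the 3 classes once members with a microglia gene and mixed droplets were left out. The genes of Ccl7 (chr11:82045712-82047525) and Ccl8 (chr11:82115185-82116799) lie near each other on the plus strand, and those of Cd209f (chr8:4102787-4105835) and Cd209g (chr8:4134098-4137707) lie near each other on chromosome 8 (GRCm38). These are families of similar genes, and the sources used here do not say how reads were divided among their members.

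Class II level divided the border macrophages with few cells between. The summed UMIs of H2-Aa, H2-Ab1 and H2-Eb1, the chains of the I-A and I-E molecules, were 0 in 46 cells, above 0 and under 10 per 10000 UMIs in 19, from 10 to under 30 in 5, from 30 to under 100 in 10 and at least 100 in 50 cells. Cells at 30 or more were called class II-high, which gave 60 class II-high cells (46.2% [37.4–55.1]) and 70 class II-low cells. Class II-high is a range of a score, and 2 cells lay within 1.5-fold of the cut. The median was 392 per 10000 in class II-high cells, which ran from 31.6 to 840, and 0 in class II-low cells, whose highest value was 14.7. At the same cut, 1.62% of microglia, 18.9% of monocytes, 0.836% of T and NK cells, 74.4% of dendritic cells and 81.9% of B cells were class II-high. Class II-high cells were 15, 6, 14 and 25 of the border macrophages under suffixes 1 to 4 (53.6%, 25%, 45.2% and 53.2%). Suffix 2 was lowest, with an interval of 9.77% to 46.7% that overlapped the others.

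**Figure D3:**
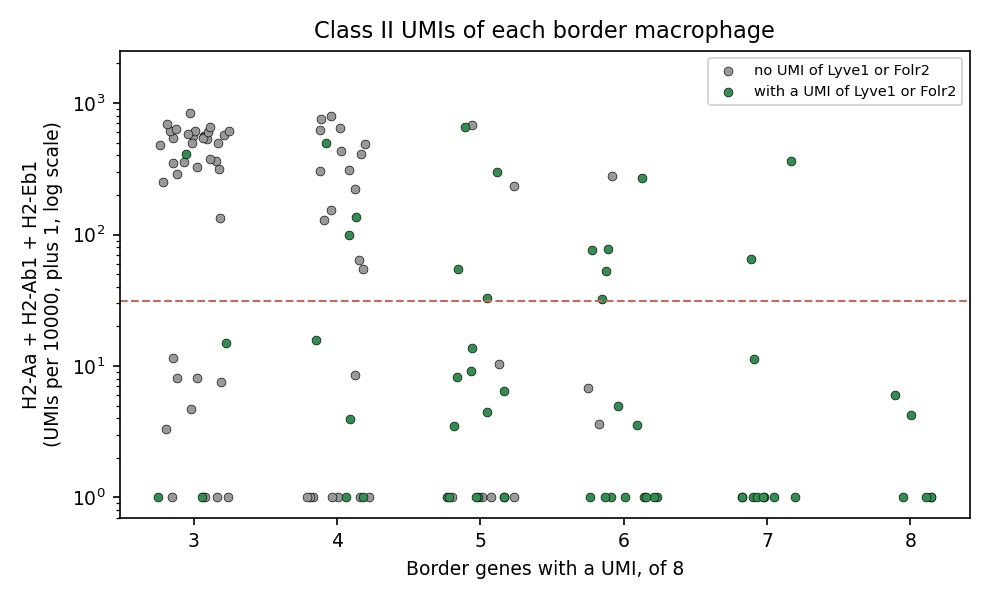
Summed UMIs of H2-Aa, H2-Ab1 and H2-Eb1 per 10000 UMIs of each border macrophage (plus 1, log axis, 1 point per cell, dashed line at the class II cut), by the number of border genes detected and coloured by a UMI of Lyve1 or Folr2. Class II-high cells run from 31.6 to 840, and none of the 6 cells with all 8 border genes is among them.

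The 3 genes that set the score lie together on chromosome 17 (GRCm38), H2-Ab1 at chr17:34257689-34269419 on the plus strand, H2-Aa at chr17:34282744-34287823 on the minus strand and H2-Eb1 at chr17:34305867-34316674 on the plus strand. The score sums them, so their joint difference is set by the split. Class II promoters are known for a shared set of boxes read by CIITA and its partners, of which the Y box holds an inverted CCAAT. The 250 bases before the start of H2-Aa (chr17:34287824-34288073, minus strand) and of H2-Eb1 (chr17:34305617-34305866, plus strand) are shown for that reason, from RefSeq (GRCm38.p6), with each CCAAT or ATTGG in capitals.
H2-Aa: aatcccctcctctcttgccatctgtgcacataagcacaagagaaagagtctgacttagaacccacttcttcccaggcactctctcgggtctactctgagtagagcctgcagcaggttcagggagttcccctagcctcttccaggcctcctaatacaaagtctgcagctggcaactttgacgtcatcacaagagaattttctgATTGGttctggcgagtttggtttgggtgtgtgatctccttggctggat
H2-Eb1: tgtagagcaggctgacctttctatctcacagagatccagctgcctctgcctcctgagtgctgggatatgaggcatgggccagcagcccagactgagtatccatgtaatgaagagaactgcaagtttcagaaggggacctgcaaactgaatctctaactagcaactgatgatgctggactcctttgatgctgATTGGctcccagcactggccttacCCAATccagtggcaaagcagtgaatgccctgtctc
H2-Aa held 1 match, ATTGG, with its first base 48 bases before the start, and H2-Eb1 held 2, with first bases 59 and 35 bases before it. The letters CCAAT or ATTGG (both strands) occur in 33.8% of 32851 promoters of this length, so a match describes the sequence only.

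The share of class II-high cells was lower where more border genes were detected. It was 67.4% of cells with 3 border genes, 58.6% with 4, 26.1% with 5, 33.3% with 6, 18.2% with 7 and 0 of 6 cells with all 8. Of the 72 cells with 3 or 4 border genes, 46 were class II-high (63.9% [51.7–74.9]), against 14 of the 58 cells with 5 to 8 (24.1% [13.9–37.2]). Just outside the rule, among the 54 cells with 2 border genes, 40 (74.1%) were at or above the class II cut. Ccr2, a monocyte marker, was detected in 20 of those 54 cells, in 9 of the 72 and in 1 of the 58. In the same order, the dendritic markers Cd209a and Flt3 were in 1, 6 and 6 cells and in 1, 1 and 0 cells. The B cell marker Cd79a was in 2, 4 and 4 cells. Median depth was 2008.5 UMIs with 3 or 4 border genes and 2235 UMIs with 5 to 8. The class II share of the members therefore moved with how strictly they were chosen.

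Class II-high cells held more of the peptide-loading genes and of a few inflammatory chemokines, and class II-low cells more of the lectins, trophic factors and Ccl24. Of 5789 genes tested, 20.8% were called, 268 (4.63%) higher in class II-high and 939 (16.2%) higher in class II-low cells, and the median log2 ratio of all genes was -0.37. With TMM scaling, which removes a shift of -0.41, the split was 547 higher and 417 lower. Without the 11 droplets, 24.6% of 6134 genes were called, 535 (8.72%) higher and 976 (15.9%) lower, and 845 genes were called in both. Many called genes rest on few UMIs: with at least 20 UMIs over both classes, 272 were called. Suffix 4 alone held 20 cells of both classes, so direction was checked there only. Red cell markers summed to 94146 CPM in class II-high and 784 CPM in class II-low cells, B cell markers to 14651 and 125 CPM, choroid plexus markers to 5734 and 25749 CPM and oligodendrocyte markers to 101 and 1978 CPM. The droplets named above held 98.6%, 93.8%, 60% and 81.8% of the UMIs of these 4 lists in border macrophages, and 5 of the 11 were class II-high.

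Of 9 tested genes of class II presentation, other than the 3 of the score, 6 were called higher in class II-high cells and none lower. Over the 119 cells, 5 of 8 were, H2-Oa no longer among them. The invariant chain Cd74 was at 38186 CPM in class II-high and 748 CPM in class II-low cells, 51.0-fold [42.8–61.3] higher. It ran from 32635 to 41066 CPM in class II-high cells under the 4 suffixes and from 453 to 1161 CPM in class II-low cells. The peptide-exchange genes H2-DMa (1340 against 119 CPM) and H2-DMb1 (1004 against 89.1 CPM) were each 11.3-fold higher. Ciita, the master regulator of class II transcription, had 15 UMIs in 11 class II-high cells and 0 in the 70 class II-low cells. Cd74 was also present outside class II-high cells, in 41.4% of class II-low border macrophages and 19.1% of microglia.

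Scavenger and lectin receptors were called lower in class II-high cells for 6 of 15 tested members and higher for none, with a median log2 ratio of -0.71 against -0.37 over all genes. Clec4n was at 42.7 CPM in class II-high and 303 CPM in class II-low cells, 7.09-fold lower. Its level in class II-high cells was 60.5, 0, 19.9 and 54.1 CPM under suffixes 1 to 4. In class II-low cells it was 380, 402, 209 and 228 CPM, without overlap. Suffix 2 held only 6 class II-high cells, and how many of all tested genes did not overlap is not given. The Clec4n fold was 11.3 without the 11 droplets. Cd209f was at 224 against 802 CPM, with a UMI in 5 of 60 and 18 of 70 cells, and 36 of its 42 UMIs in class II-high cells came from suffix 3. It was 8.86-fold lower without the 11 droplets. Cd209b had 0 UMIs in class II-high and 16 in class II-low cells, all from 4 cells. Stab1 was 2.24-fold lower (417 against 933 CPM). Among the 34 cells with no microglia gene, Cd209f turned the other way, at a log2 ratio of 0.62.

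The border genes of the rule divided along the same line, as a description: 5 of 8 were lower in class II-high cells. Lyve1 was at 48.1 against 481 CPM, 10.0-fold lower, with a UMI in 6 of 60 and 30 of 70 cells. Under suffixes 1 to 4 it was at 15.1, 64.7, 59.7 and 72.2 CPM in class II-high cells and at 570, 377, 549 and 435 CPM in class II-low cells. Cd163 (74.8 against 267 CPM), Cbr2 (214 against 630 CPM), Folr2 (176 against 481 CPM) and F13a1 (384 against 855 CPM) were also lower, the last no longer called without the 11 droplets. Mrc1 (534 against 790 CPM), Ms4a7 (609 against 992 CPM) and Pf4 (2130 against 3897 CPM) were not called. Apoe (50765 against 67667 CPM), Lyz2 (14208 against 17018 CPM) and C1qa (6722 against 8738 CPM) were not called either, and none of 11 transcription factors was. With TMM scaling, Folr2, F13a1, Stab1, Gas6 and Ctsd fell under 2-fold, and Folr2, F13a1 and Stab1 were not called without suffix 3, nor Stab1 without suffix 2.

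Of 9 tested genes of the list of trophic factors and prostaglandin enzymes, 5 were lower in class II-high cells and none higher. The enzyme Ptgs1 was among the 5. Igf1, a growth factor, was at 64.1 against 244 CPM, with a UMI in 9 of 60 and 26 of 70 cells. Under suffixes 1 to 4 it was at 121, 0, 59.7 and 18 CPM in class II-high cells and 261, 251, 235 and 228 CPM in class II-low cells. Gas6, a ligand of Axl and Mertk, was at 352 against 885 CPM, but was higher in class II-high cells among the 34 cells with no microglia gene (log2 ratio 0.69). Egfl7, also lower, turned in the same way (2.45). The iron exporter Slc40a1 was at 21.4 against 137 CPM, 6.40-fold lower, and was found in 3 of 60 and 20 of 70 cells. The lysosomal proteases Ctsd (1132 against 2875 CPM) and Ctsl (3.25-fold) were lower. The Ctsd values did not overlap across suffixes (597 to 1732 against 2379 to 3822 CPM), with the limits given for Clec4n.

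Chemokines went both ways, with 5 of 18 tested genes higher in class II-high cells and 1 lower. Over the 119 cells, for which direction was not checked within suffixes, 8 were higher, with Ccl6, Ccl12 and Cxcl1 added. In those cells 3 were lower (Ccl24, Ccl7 and Ccl8). Ccl24 was at 21.4 CPM in class II-high and 309 CPM in class II-low cells, 14.5-fold [5.32–55.1] lower, with a UMI in 2 of 60 and 21 of 70 cells. Under suffixes 1 to 4 it was at 15.1, 0, 59.7 and 0 CPM in class II-high cells and at 451, 226, 340 and 228 CPM in class II-low cells. Without the 11 droplets, Ccl8 was at 138 against 493 CPM. On the other side, Ccl4 was at 1970 against 327 CPM, 6.03-fold higher, with a UMI in 25 of 60 and 15 of 70 cells. Ccl3 was at 1548 against 606 CPM and the cytokine Il1b at 363 against 160 CPM, the latter not called without suffix 2. Cxcl2 was at 523 against 125 CPM and, without the 11 droplets, 6.90-fold higher. Among the cells with at least 4 border genes, Ccl4 and Ccl3 turned the other way (log2 ratios -0.35 and -0.0065), and among the 34 cells with no microglia gene Cxcl2 did (-1.58).

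Markers of other cell types were read beside the class II split. The 6 monocyte markers summed to 240 CPM in class II-high and 719 CPM in class II-low cells, with Ccr2 alone called higher. Without the 11 droplets the sums were 269 and 42.9 CPM, with Ccr2, Plac8 and Ms4a4c called higher. Ccr2 had 24 UMIs in 9 class II-high cells and 4 UMIs in 1 class II-low cell, and without the 11 droplets 20 UMIs against 0. The B cell marker Cd79a had 48 against 1 UMIs, and without the droplets 26 against 1. Among the 34 cells with no microglia gene both turned the other way (log2 ratios -0.31 for Ccr2 and -1.54 for Cd79a). The immunoglobulin transcript Igkc, the gene of largest ratio in class II-high cells, had 4146 UMIs against 11, of which 97 and 10 were left without the droplets. B cell markers then still summed to 719 against 129 CPM, and all 4 tested were called higher in class II-high cells. Iglc2 then had 12 UMIs in 2 class II-high cells, Ly6d 17 in 2 and Lyz1 12 in 4. Direction was not checked within suffixes for the cells left. The 10 named genes higher in class II-high cells (Igkc, Cd74, Jchain, Iglc2, Iglc1, Ly6d, H2-DMa, H2-DMb1, Ciita and Lyz1) hold immunoglobulin genes beside class II genes, and all 10 were also called without the droplets. Of the 10 named in class II-low cells, 3 were (Cd209b, Ccl24 and Cyr61), and Aplp1, Penk, Gng11, Car2, Cryab, Cldn11 and Atp1b1 were not. The part of other cells' RNA in the class II split was not tested further. Of the 15 border macrophages with no UMI of a B cell, dendritic, monocyte or microglia rule marker, 4 were class II-high.

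**Figure D4:**
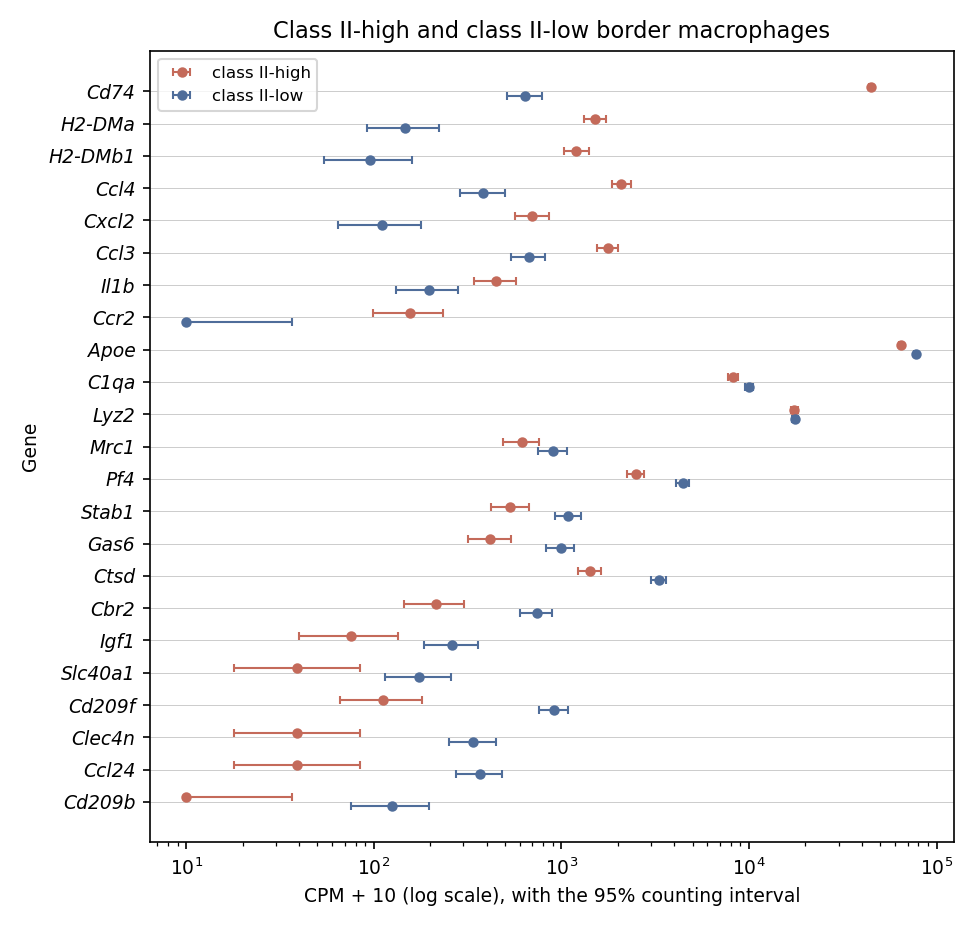
Levels of named genes (CPM + 10, log axis) in the 55 class II-high and 64 class II-low border macrophages left without the 11 droplets, with exact Poisson 95% intervals. Cd74 is at 44937 against 629 CPM, Ccl24 at 29.0 against 357 CPM and Ccl4 at 2077 against 371 CPM, with intervals that do not overlap.

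Lyve1 or Folr2 had a UMI in 58 of the 130 border macrophages (44.6% [35.9–53.6]). Both genes were detected in 29 cells, Lyve1 without Folr2 in 7 and Folr2 without Lyve1 in 22. Background was low, with a UMI of either gene in 0.149% of B cells and 0 of 718 T and NK cells. It was in 0.422% of microglia and 2.36% of monocytes. These 2 classes were limited to at most 2 border genes, so their shares are partly set by definition. By suffix the shares were 39.3%, 50%, 51.6% and 40.4%, and their intervals overlapped. Detection depends on depth, and with each cell thinned to 1000 UMIs the share was 33.9% of the 127 cells deep enough. Lyve1 (chr7:110850607-110863239) and Folr2 (chr7:101839988-101857194) are both on the minus strand of chromosome 7.

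The Lyve1 or Folr2 cells were mostly class II-low. Of class II-high cells, 15 of 60 held a UMI of either gene (25% [14.7–37.9]), against 43 of 70 class II-low cells (61.4% [49.0–72.8]). The share was lower in class II-high cells under each suffix, at 26.7%, 33.3%, 21.4% and 24% against 53.8%, 55.6%, 76.5% and 59.1%. Thinned to 1000 UMIs, the shares were 15% of 60 and 50.7% of 67 cells. When the cells were chosen by at least 3 of the 6 other border genes, which left 125 cells, they were 22.4% and 59.7%. Without the 11 droplets they were 21.8% of 55 and 60.9% of 64 cells. Among the 58 cells with at least 5 border genes, however, Lyve1 or Folr2 was in 11 of 14 class II-high cells (78.6%) and 36 of 44 class II-low cells (81.8%). The cells with many border genes thus held Lyve1 or Folr2 at both class II levels, and detection of either gene counts towards those 5. Class II-high cells held a median of 4 border genes and class II-low cells 5.

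Cells with Lyve1 or Folr2 also held more of other lectins and less class II, at a median depth of 2214.5 UMIs against 2052.5. Of 5692 genes tested, 19.6% were called, 632 (11.1%) higher and 484 (8.5%) lower in Lyve1 or Folr2 cells, and the median log2 ratio was 0.0036. Without the 11 droplets, 24.6% of 5610 genes were called, 895 (16%) higher and 484 (8.63%) lower. No suffix held 20 cells of both classes. Red cell markers summed to 90109 CPM in Lyve1 or Folr2 cells and 7316 CPM in the others, B cell markers to 14480 and 655 CPM, oligodendrocyte markers to 1780 and 151 CPM, stromal markers to 513 and 23.2 CPM and monocyte markers to 98.3 and 858 CPM. Over the 119 cells, the same sums in Lyve1 or Folr2 cells and the others were 801 and 884 CPM for red cell, 373 and 462 CPM for B cell, 293 and 171 CPM for oligodendrocyte, 87.2 and 26.4 CPM for stromal and 95.2 and 204 CPM for monocyte markers. Their part in the split was not tested. Scavenger and lectin receptors were higher for 6 of 15 tested and lower for none. Cd209f was at 797 against 180 CPM (4.44-fold [2.99–6.77]), Timd4 at 137 against 40.6 CPM, the galactose lectin Clec10a at 218 against 87.0 CPM and Cd209g at 268 against 92.8 CPM. Cd209b had 16 UMIs against 0. Cd163, a border gene of the rule and so a description only, was at 240 against 87.0 CPM. Igf1 was at 207 against 87.0 CPM and Slc40a1 at 109 against 40.6 CPM. Without suffix 1, Cd163, Cd209g, Clec10a, Igf1 and Slc40a1 were not called. Among the 34 cells with no microglia gene, Cd209f and Cd209g were lower in Lyve1 or Folr2 cells.

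Of 18 chemokines tested, 4 were higher in Lyve1 or Folr2 cells and 7 were lower. Over the 119 cells, 5 were higher and 4 lower, and Ccl3, Cxcl2 and Cxcl10 were no longer called. Ccl24 was at 229 against 81.2 CPM, Ccl8 at 475 against 180 CPM and Ccl2 at 1835 against 899 CPM. The Ccl24 fold was 4.21 without the 11 droplets, but Ccl24 turned the other way among the 34 cells with no microglia gene (log2 ratio -0.72). Ccl2 was not called without suffix 1 or without suffix 3, and Ccl8 not without suffix 4. Ccl4 was 3.23-fold lower (573 against 1849 CPM), but was not called without suffix 3 and was higher with at least 4 border genes (log2 ratio 2.14). Cxcl14 had 0 against 14 UMIs and the B cell attractant Cxcl13 had 3 against 23 UMIs, the latter not called without suffix 4 and higher with at least 4 border genes (1.43). H2-Aa was 3.78-fold lower (2741 against 10365 CPM), H2-Ab1 4.23-fold, H2-Eb1 4.36-fold and Cd74 3.65-fold lower (8949 against 32689 CPM). Ccr2 had 7 against 21 UMIs, Clec12a was 3.31-fold lower and the phospholipase Plbd1 had 3 against 23 UMIs. Of the 10 genes named by ratio in Lyve1 or Folr2 cells, 3 were also called without the 11 droplets (Sept4, Cd209b and Nov), and of the 10 named in the other cells 9 were, Rsad2 being the exception.

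The same rule found 22 cells among 9367 kept cells of the unsorted total brain sample, 0.235% [0.147–0.355], with 2, 1, 8 and 11 under its suffixes 1 to 4. The sort, the ages and the sexes differ at once between the samples and cannot be told apart. Mrc1 was detected in 21 of the 22 cells, Pf4 in 18, Ms4a7 in 15, Dab2 and Stab1 in 19 each and Apoe in all 22. Of the 22 cells, 10 were mixed by the lists named above. Those lists leave out neurons, and 9 of the 22 cells held 2 or more neuron markers. Class II-high cells were 3 of 22 (13.6% [2.91–34.9]), below the 46.2% of the sorted sample, and 10 of 22 (45.5%) held Lyve1 or Folr2. None of the 3 class II-high cells held Lyve1 or Folr2.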

How the data were processed

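Per the file headers and the submitters' processing notes, the authors made the deposited matrices, raw UMI counts for 31053 genes, with Cell Ranger (3.0.2 in the notes and the sorted header, 3.1.0 in the total header) and the mm10 genome. The sources used here do not give the annotation release, and the matrices held 0 columns of other samples. Cells, comparison classes, gene lists (17) and marker lists (16) were chosen with earlier results of these data known. UMIs were summed per class and scaled to CPM. Calls used a pseudocount of 10 CPM, and the level minimum of 20 CPM means that a gene can be tested through the class in which it is high. Named genes were list members, the 10 called genes of largest ratio per direction of each split, the 15 leading genes of the border macrophages and those of highest CPM, at 50 CPM or more in a class. Mitochondrial, ribosomal and predicted genes were left out of the ranked names, and markers of other types were given apart. Scrublet, run per suffix, called doublets (0.844% of kept sorted cells), which were not removed. B cells and T and NK cells were kept cells with at least 3 of their markers. A zero count was set to a floor of 3 UMIs for folds written as "at least". The fold rule was tested on simulated data: with 2318 genes and the class II split, 99% of genes changed 4-fold and 25% of genes changed 2-fold lay past 2-fold, as did 4.44% of unchanged genes. Against microglia (2697 genes) the values were 100%, 12% and 0.160%. Fewer genes were simulated than the 5789 and 5816 tested in these comparisons, so the rates do not describe all tested genes. Alternatives were other cell filters, rule thresholds, class II cuts, scalings, pseudocounts and level minimums, thinning, and removal of mixed droplets, doublets or each suffix. Positions are from GENCODE M21 (GRCm38). Software was Python 3.11.15, numpy 2.4.6, scipy 1.17.1, pandas 2.3.3, scanpy 1.11.5 and matplotlib 3.10.9. Some genes are not reported here.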

Additional observations from a re-analysis of the deposited data

How the results depend on the processing

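With at least 4 border genes, border macrophages were 0.863% of kept cells, 35.6% were class II-high, 62.1% held Lyve1 or Folr2, and 2013 genes were called between class II levels and 1769 between Lyve1 or Folr2 classes. With no microglia gene allowed, the shares were 0.337% of kept cells and 35.3% class II-high, and 3287 (class II), 4727 (Lyve1 or Folr2), 2191 (microglia) and 2168 (monocytes) genes were called. With mixed droplets left out as well, an alternative chosen after seeing the data, these were 0.258% and 34.6%, and 3993, 4009, 2926, 3348 and 3532 (dendritic cells) genes. Fewer cells enter these comparisons. With no microglia gene allowed, no suffix held 20 border macrophages, so direction was not checked and the counts rest on a looser rule. Mixed droplets alone left out gave 1.05% of kept cells. The stricter cell filter (1000 genes, 5% mitochondrial) gave 54.0% with Lyve1 or Folr2, 2405 genes called between class II levels and 1812 between Lyve1 or Folr2 classes, and the looser one (200 genes, 20%) gave 504 for the latter. Thinning gave 33.9% with Lyve1 or Folr2. For Lyve1 or Folr2 classes, 1707 genes were called with a pseudocount of 1 CPM and 2128 with no level minimum. A minimum of 50 CPM gave 551, 351, 602, 833 and 919 genes (class II, Lyve1 or Folr2, microglia, monocytes, dendritic cells). A minimum of 20 UMIs, chosen after seeing the data, gave 272, 184 and 824 (class II, Lyve1 or Folr2, dendritic cells), and 215, 140 and 785 with the 11 droplets also left out.

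Leaving out each suffix in turn gave 1.10% to 1.47% of kept cells, 42.2% to 50.9% class II-high, 42.4% to 47.0% with Lyve1 or Folr2, and 1450 to 1917 genes called between class II levels (1917 without suffix 4), 1269 to 1630 between Lyve1 or Folr2 classes, 1042 to 1136 against microglia, 1336 to 1679 against monocytes and 1759 to 2012 against dendritic cells. Without suffix 4, direction was not checked between class II levels. No paired analysis was possible because each group is 1 pooled sample and no comparison has a test.

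Directions of single genes turned in 28 of the recomputed ratios, all under rules with fewer cells, and the cause was not tested. With no microglia gene allowed, the log2 ratios of class II-high over class II-low became -0.31 (Ccr2), 0.62 (Cd209f), -1.58 (Cxcl2), 0.69 (Gas6), 2.45 (Egfl7) and -1.54 (Cd79a), and those of Lyve1 or Folr2 cells over the others -5.79 (Cd209f), -4.81 (Cd209g), -0.43 (Colec12), -0.72 (Ccl24) and 2.53 (Fcgr4). With mixed droplets left out as well, the first became -0.94 (Cxcl2), 0.52 (Gas6), 3.64 (Egfl7), 0.092 (Fcgrt) and 0.50 (Sparc), and the second -5.96 (Cd209f), -4.58 (Cd209g), -0.038 (Igf1), 0.31 (Clec12a) and 3.60 (Fcgr4). Under that setting Cyr61 was at -0.46, -0.35 and -0.69 against microglia, monocytes and dendritic cells. With at least 4 border genes, Ccl3 was at -0.0065 and Ccl4 at -0.35 between class II levels, and Ccl4 at 2.14 and Cxcl13 at 1.43 between Lyve1 or Folr2 classes.

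With TMM scaling, 10 of 175 named ratios fell under 2-fold (Folr2, F13a1, Stab1, Timd4, Gas6, Wfdc17, Ctsd, Fcgrt and Fcrls between class II levels, Irf8 against microglia) and none turned. Depth limits the detection of Lyve1 and Folr2, as the thinned share shows, and 1 pooled sample gives no spread between animals.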
